A study of Mus musculus with 51 samples.

Results

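The 10 Notch pathway genes described here were followed through the deposited bone data: the receptors Notch1, Notch2, Notch3 and Notch4, the ligands Jag1, Jag2 and Dll4, and the target genes Hes1, Hey1 and Heyl. They were chosen by name, and they are 10 of the 20716 genes that occur in both RNA tables of the series. All 10 passed the filters on low values in both tables, so none is missing from the tests. For the peak lists, every peak within 30 kb of a gene body was counted. Hes1, Heyl, Notch3 and Dll4 also belong to a set of bone genes that the study defined from public expression data of other samples.

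Notch receptors are membrane proteins that are cut when a Jagged or Delta ligand on a neighbouring cell binds them, and the freed intracellular part joins the DNA-binding protein RBPJ in the nucleus. The best known genes switched on in this way encode the repressors of the Hes and Hey families. In bone, Notch signalling is known for holding back osteoblast differentiation and for shaping arteries and the vessels that accompany bone formation, and Notch3 is typical of the mural cells around vessels while Notch4 and Dll4 are typical of endothelium.

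The study asked what vitamin C and the enzymes TET1 and TET2, which oxidise 5-methylcytosine to 5-hydroxymethylcytosine (5hmC), do in bone-forming cells. Femur RNA came from C57BL/6 mice of 20 weeks in groups of 3 libraries: WT, and Gulotm1Mae mice, which cannot make vitamin C, that drank 3.3 g/L vitamin C for the whole 20 weeks (VitC+) or for 15 weeks followed by 5 weeks without (VitC+/-). A separate set of 11-week-old C57BL/6 mice, again 3 libraries a group, carried floxed Tet1 (Tet1 cKO), floxed Tet2 (Tet2 cKO), both (Tet1/2 cKO) or neither (Ctrl). All 4 of these groups carried Prrx1-Cre, the controls included. The Prrx1 enhancer acts in limb bud mesenchyme, so the recombinase is not directed to endothelial or blood cells. Femurs had been cleared of marrow and periosteum before extraction. 5hmC was mapped by hMeDIP-seq in VitC+, VitC+/-, Ctrl and Tet1/2 cKO femurs with 3 samples a group, and in MC3T3-E1, a mouse preosteoblast line derived from calvaria, with 2 cultures each with (VitC+) and without (VitC-) 50 µg/ml vitamin C at day 28. The same line gave 2 samples per group for the histone marks H3K27me3 and H3K9me3. In whole bone, fewer cells of a type and less RNA per cell cannot be told apart.

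The regulatory sequences at the genes that carry the main differences are shown first. Coordinates are mm10, and promoters are taken from RefSeq on GRCm38.p6 as the 250 bases before the start site, 5′ to 3′ on the strand of the gene. Notch3, Notch4 and Jag1 are shown because their RNA passed the test between VitC+/- and WT, and Jag2 because much less of its gene body lay under H3K27me3 peaks with vitamin C than without. The Jag2 difference rests on peaks of low significance. In the same lists 21.3% of all genes had at least 2-fold less covered length with vitamin C, by the measure given below. Capitals mark CG pairs, the sites that TET enzymes act on.

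Notch3 promoter, chr17:32166891-32167140, strand minus: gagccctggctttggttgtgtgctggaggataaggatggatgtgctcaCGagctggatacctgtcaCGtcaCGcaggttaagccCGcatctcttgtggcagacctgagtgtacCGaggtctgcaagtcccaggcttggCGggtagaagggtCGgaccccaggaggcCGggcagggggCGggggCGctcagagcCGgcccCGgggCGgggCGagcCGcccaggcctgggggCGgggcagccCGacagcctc

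Notch4 promoter, chr17:34564045-34564294, strand plus: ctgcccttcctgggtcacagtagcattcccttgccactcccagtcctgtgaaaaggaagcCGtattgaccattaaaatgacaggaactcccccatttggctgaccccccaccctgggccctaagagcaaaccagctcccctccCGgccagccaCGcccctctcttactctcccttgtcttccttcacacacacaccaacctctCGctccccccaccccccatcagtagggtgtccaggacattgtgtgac

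Jag1 promoter, chr2:137116521-137116770, strand minus: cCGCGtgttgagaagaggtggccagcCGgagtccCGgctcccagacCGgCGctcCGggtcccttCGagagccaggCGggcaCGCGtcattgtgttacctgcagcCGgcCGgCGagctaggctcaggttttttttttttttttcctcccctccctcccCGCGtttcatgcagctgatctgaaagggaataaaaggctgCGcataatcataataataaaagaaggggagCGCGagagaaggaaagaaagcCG

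Jag2 promoter, chr12:112929496-112929745, strand minus: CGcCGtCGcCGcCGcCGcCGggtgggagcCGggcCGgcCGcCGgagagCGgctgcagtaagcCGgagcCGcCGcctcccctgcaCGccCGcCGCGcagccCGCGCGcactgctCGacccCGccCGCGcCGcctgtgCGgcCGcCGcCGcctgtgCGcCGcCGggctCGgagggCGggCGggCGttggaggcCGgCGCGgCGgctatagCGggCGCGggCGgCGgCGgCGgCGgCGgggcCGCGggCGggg

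Promoter sequences were found for 7 of the 10 genes, all except Hes1, Hey1 and Heyl. Jag2 held 54 CG pairs in its 250 bases and Notch2 held 34, followed by 20 at Jag1, 17 at Notch3, 16 at Notch1, 14 at Dll4 and 4 at Notch4. Over all 32851 promoters of the same length the median was 6, with quartiles of 2 and 16, so Notch4 lay below the median and the other 6 lay above it. The letters GTGGGAA, which RBPJ is known to bind, were searched on both strands and occurred in 0 of the 7 promoters and in 5.42% of all promoters. The palindrome CACGTG, an E-box that Hey proteins can bind, occurred in 0 of the 7 and in 6.02% of all.

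The 5hmC peaks with the highest fold enrichment in vitamin C-treated MC3T3-E1 cells near 4 of the genes are shown as their middle 300 bases, on the strand of the gene, because the femur 5hmC values are also given at them. They were chosen from the list of the treated cells after its values were seen. Capitals again mark CG pairs.

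Notch3 peak middle, chr17:32160397-32160696, strand minus: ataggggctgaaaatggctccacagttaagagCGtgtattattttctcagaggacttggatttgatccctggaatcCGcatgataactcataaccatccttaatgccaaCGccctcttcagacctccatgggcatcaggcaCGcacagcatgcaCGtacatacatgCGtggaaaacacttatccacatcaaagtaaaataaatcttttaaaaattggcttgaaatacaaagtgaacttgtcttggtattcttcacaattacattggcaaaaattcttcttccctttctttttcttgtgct

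Hes1 peak middle, chr16:30062493-30062792, strand plus: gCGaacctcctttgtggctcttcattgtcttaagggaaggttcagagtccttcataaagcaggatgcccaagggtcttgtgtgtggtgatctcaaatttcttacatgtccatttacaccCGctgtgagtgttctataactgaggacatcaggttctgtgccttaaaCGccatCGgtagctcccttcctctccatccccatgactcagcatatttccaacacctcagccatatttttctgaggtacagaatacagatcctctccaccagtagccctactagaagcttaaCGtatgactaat

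Jag1 peak middle, chr2:137080849-137081148, strand minus: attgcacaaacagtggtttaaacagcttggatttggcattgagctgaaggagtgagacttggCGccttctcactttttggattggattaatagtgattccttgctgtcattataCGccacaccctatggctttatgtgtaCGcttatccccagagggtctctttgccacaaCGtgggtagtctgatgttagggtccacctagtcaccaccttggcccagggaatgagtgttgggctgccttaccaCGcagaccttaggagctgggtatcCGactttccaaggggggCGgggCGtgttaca

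Notch2 peak middle, chr3:98039424-98039723, strand plus: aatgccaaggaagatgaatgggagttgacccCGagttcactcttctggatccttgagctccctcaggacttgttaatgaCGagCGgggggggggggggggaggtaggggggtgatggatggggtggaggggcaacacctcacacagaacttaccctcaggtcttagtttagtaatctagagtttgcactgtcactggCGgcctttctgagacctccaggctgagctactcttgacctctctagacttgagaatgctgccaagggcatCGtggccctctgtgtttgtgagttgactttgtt

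The Notch3 and Notch2 stretches lie in introns, the Hes1 stretch has its middle at -2714 bp from the start site, that is upstream, and the Jag1 stretch lies just past the 3′ end of the gene. They hold 6 CG pairs at Notch3, 5 at Hes1, 8 at Jag1 and 5 at Notch2, against a median of 4 and quartiles of 3 and 5 in the middles of all 253424 such peaks on autosomes. Each gene has the following place in mm10. Notch1 is on chromosome 2 at 26457902 to 26503822, Notch2 on chromosome 3 at 98013538 to 98150367, Notch3 on chromosome 17 at 32120893 to 32166852 and Notch4 on chromosome 17 at 34564295 to 34588543. Jag1 is on chromosome 2 at 137081451 to 137116520, Jag2 on chromosome 12 at 112908590 to 112929495 and Dll4 on chromosome 2 at 119325784 to 119335666. Hes1 is on chromosome 16 at 30065357 to 30067796, Hey1 on chromosome 3 at 8663359 to 8667038 and Heyl on chromosome 4 at 123233556 to 123249870. The antisense gene Gm17276 covers 20951 bp of Notch3 and Gm14207 covers 411 bp at the 5′ end of Dll4, and reads of such pairs cannot be told apart here because the counting is not stated to use strand.

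Depth differed among the libraries. From the steps between low RPKM values, the vitamin C femur libraries held an estimated 7585000 reads in genes in WT replicate 1 and 31040000 to 47280000 in the others, and the Tet femur libraries held 28597536 to 49788434 reads. Behind a single value of the 10 genes stood between an estimated 51.8 reads (Jag2, WT replicate 1) and 4470 reads (Notch2). Gulo, the gene mutated in Gulotm1Mae mice and active mainly in liver, gave an estimated 8.96, 38.8 and 0 reads in the libraries labelled WT and 0.994 to 13.9 reads in the 6 Gulotm1Mae libraries. The library labelled WT replicate 3 therefore does not show the intact gene that its label states. Reads this few do not settle a genotype, and comparisons with WT are also given without that library. The study's methods describe the femur libraries as biological replicates, while the labels do not name the animal behind each, and p-values measure the spread between these libraries.

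Levels in the vitamin C femurs are RPKM, that is reads scaled by gene length and library size, divided by 1 scaling factor per library. Per length, Hes1 had the highest mean in VitC+ and Notch2 in the other groups, and Jag2 had the lowest mean in all 3. Mean levels in VitC+ (n = 3, ± SD) were 9.63 ± 2.14 for Hes1, 7.51 ± 0.834 for Notch2, 7.36 ± 1.84 for Hey1, 6.24 ± 2.44 for Notch3 and 6.14 ± 0.0495 for Notch1. Below them came Notch4 at 4.53 ± 0.691, Heyl at 4.40 ± 1.73, Jag1 at 4.15 ± 0.951, Dll4 at 3.84 ± 0.402 and Jag2 at 2.47 ± 0.229. Neighbours in this order differed by no more than the larger SD of the pair, apart from Notch1 and Notch4 and from Dll4 and Jag2. Notch2 stood at 8.76 ± 1.52 in WT and 8.16 ± 1.06 in VitC+/-, and Jag2 at 1.14 ± 0.517 and 2.41 ± 0.979.

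**Figure D1:**
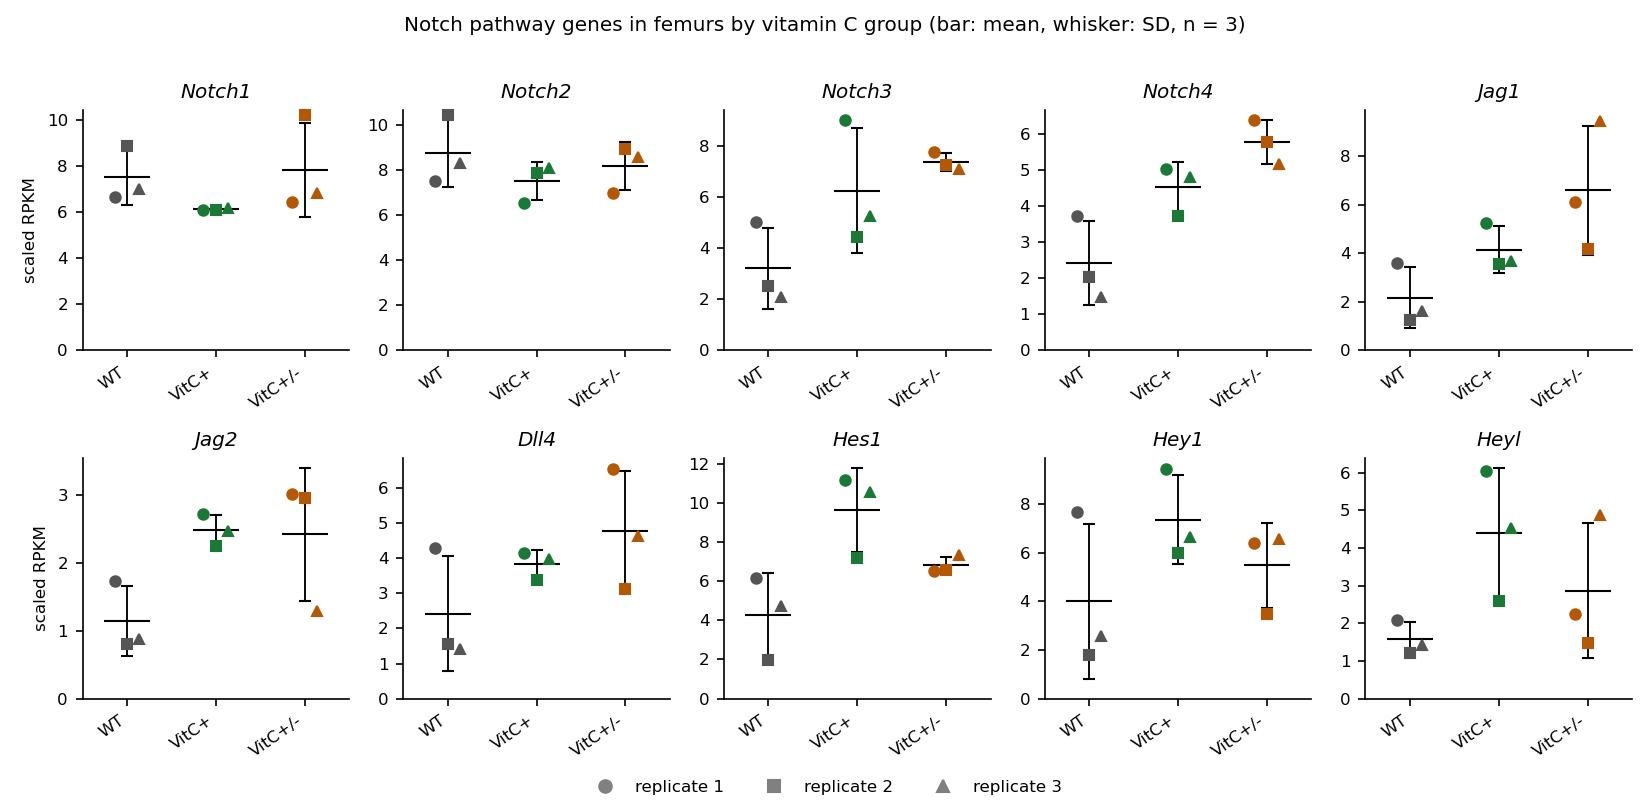
Scaled RPKM (vertical axis) of the 10 genes in the 3 femur libraries of each vitamin C group, with 1 symbol per replicate number, a bar at the mean and a whisker of 1 SD. Notch3, Notch4, Jag1 and Hes1 lie higher in all 3 VitC+/- libraries than in any library labelled WT, as do 21.4% of all genes. Notch1 and Notch2 overlap between these groups.

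Withdrawal of vitamin C for the last 5 weeks was the comparison at the centre of the vitamin C study. No gene of the 10 was called in it. By limma, 0 of the 10 passed the threshold of 0.05 on the adjusted p, and 0 passed it unadjusted, while 5.93% of all 12586 genes tested were called higher in VitC+/- than in VitC+ and 7.52% lower. All 4 receptors and 2 of the 3 ligands had higher values in VitC+/-, and all 3 targets had lower values. The median log2 fold change was 0.17 over the 10 genes and 0.02 over all genes.

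Notch1, the receptor with broad use across tissues, gave 6.12, 6.09 and 6.19 scaled RPKM in VitC+ and 6.47, 10.2 and 6.85 in VitC+/-. Notch4, an endothelial receptor, gave 5.02, 3.74 and 4.81 in VitC+ and 6.40, 5.77 and 5.17 in VitC+/-. In both genes every VitC+/- library was above every VitC+ library, as were 21.4% of all genes tested, and none of the 10 lay without overlap in the other direction, as 19.1% of all genes did. Replicate 2 stood highest by far in Notch1. The log2 fold changes were 0.30 (SE 0.19, adjusted p = 0.309, limma) for Notch1 and 0.33 (SE 0.26, adjusted p = 0.434) for Notch4.

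Notch3 stood at 9.02, 4.45 and 5.27 scaled RPKM in VitC+ and at 7.77, 7.24 and 7.08 in VitC+/-, so that the spread in VitC+ enclosed the other group. Notch2 overlapped as well, at 6.55, 7.87 and 8.09 against 6.96, 8.94 and 8.59. Their log2 fold changes were 0.28 (95% interval -0.42 to 0.98) and 0.11 (-0.27 to 0.49).

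Among the ligands, Jag1 gave 5.25, 3.54 and 3.67 scaled RPKM in VitC+ and 6.13, 4.17 and 9.46 in VitC+/-. The third VitC+/- library stood well above the rest and the groups overlapped, with a log2 fold change of 0.56 (95% interval -0.25 to 1.36, adjusted p = 0.322, limma). Dll4, the ligand of sprouting and arterial endothelium, gave 4.15, 3.38 and 3.97 in VitC+ and 6.57, 3.12 and 4.63 in VitC+/-. Its VitC+/- libraries lay on both sides of the VitC+ range, with a log2 fold change of 0.23 (-0.58 to 1.04). Jag2 gave 2.71, 2.25 and 2.46 in VitC+ and 3.01, 2.95 and 1.28 in VitC+/-, with 2 VitC+/- libraries above all VitC+ libraries and 1 below them. Its log2 fold change was -0.09 (-0.78 to 0.60).

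The targets leaned the other way without passing the test. Hes1 gave 11.1, 7.19 and 10.6 scaled RPKM in VitC+ and 6.50, 6.56 and 7.32 in VitC+/-. Of the VitC+/- libraries, 2 were below every VitC+ library and the third exceeded VitC+ replicate 2 by a small margin. Hey1 gave 9.45, 5.98 and 6.64 against 6.41, 3.47 and 6.56, and Heyl gave 6.06, 2.6 and 4.53 against 2.24, 1.48 and 4.89. In both genes the groups overlapped, and in Heyl the third VitC+/- library stood above 2 of the VitC+ libraries. The log2 fold change of Hes1 was -0.45 (95% interval -1.20 to 0.29, adjusted p = 0.385, limma), that of Hey1 was -0.42 (-1.40 to 0.57) and that of Heyl was -0.60 (-1.48 to 0.27, adjusted p = 0.326). All 3 intervals include 0 and reach below a log2 fold change of -1.

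Of the other Notch pathway genes, 39 could be tested, and 4 were called higher and 0 lower in VitC+/- than in VitC+ (limma). Among those called, Furin, the protease that processes the Notch precursor, was higher by a log2 fold change of 1.09 (SE 0.14, adjusted p = 0.00302). Ncstn, a subunit of the γ-secretase that frees the intracellular part, was higher by 0.72 (adjusted p = 0.0259). Dtx2, a ubiquitin ligase of the Deltex family, was higher by 0.55 (adjusted p = 0.0335). Rbpj itself differed by 0.13 (adjusted p = 0.661).

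Cell type markers moved in the same comparison. The summed scaled RPKM of 15 osteoblast and osteocyte markers ranged from 5644 to 10992 in VitC+ and from 717 to 4515 in VitC+/-, with 7 of 15 called lower. Of 16 endothelial markers 0 were called, and their sum was 259 to 399 in VitC+ and 288 to 323 in VitC+/-. Of the 11 mural markers tested 1 was called lower, and the sum over all 12 was 109 to 189 and 100 to 228. Blood cell markers summed to 12734 to 19840 in VitC+ and to 3467 to 10776 in VitC+/-, with 4 of 12 called lower and 1 higher, and osteoclast markers summed to 1905 to 2632 and 2958 to 6531, with 4 of 10 called higher. The 8 muscle markers all had lower values in VitC+/-, with a median log2 fold change of -1.31 and 0 called. Their sums in replicates 1 to 3 were 31.3, 1220 and 39.1 in VitC+ and 463, 17.5 and 8.35 in VitC+/-. The 8 adipocyte markers summed to 179 to 398 and 322 to 2503, with VitC+/- replicate 2 far above the rest and 0 of 7 tested called. Every marker of the other lists named here was above 0 in each of these libraries. The part of these shifts in the Notch values was not tested.

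Against WT, the VitC+/- femurs had more Notch3, Notch4 and Jag1 RNA. These 3 of the 10 genes were called higher and 0 lower (limma), where 15.3% of all genes were called higher and 15.9% lower. WT and VitC+/- differ both in the Gulo allele and in vitamin C at the end, and the comparison shares its VitC+/- libraries with the one above. The median log2 fold change was 0.77 over the 10 genes and 0.01 over all genes.

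Notch3 gave 5.02, 2.52 and 2.09 scaled RPKM in the libraries labelled WT, against the 7.08 to 7.77 of VitC+/-. Every VitC+/- library was higher, and replicate 1 was the highest within WT. The log2 fold change was 1.16 (SE 0.31, 95% interval 0.46 to 1.86, adjusted p = 0.0206, limma).

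Notch4 gave 3.72, 2.04 and 1.48 in the libraries labelled WT, below the 5.17 to 6.40 of VitC+/-. The groups did not overlap and the log2 fold change was 1.18 (SE 0.26, 95% interval 0.58 to 1.77, adjusted p = 0.00998, limma).

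Jag1, the main Jagged ligand of vessel walls and bone surfaces, gave 3.62, 1.27 and 1.63 in the libraries labelled WT and again lay below every VitC+/- library. It had the largest difference of the 10 genes, a log2 fold change of 1.44 (SE 0.36, 95% interval 0.63 to 2.24, adjusted p = 0.0154, limma).

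Hes1 was the fourth gene with groups that did not overlap, a pattern that 21.4% of all genes showed in the higher direction. Its levels were 6.15, 1.94 and 4.70 in the libraries labelled WT and 6.50 to 7.32 in VitC+/-, and its log2 fold change of 0.73 (SE 0.33, adjusted p = 0.120, limma) did not pass the threshold. Dll4 gave 4.31, 1.55 and 1.41 and Jag2 gave 1.73, 0.804 and 0.877 in the libraries labelled WT, and replicate 1 of WT reached into the VitC+/- range in both. Jag2 at a log2 fold change of 0.81 (adjusted p = 0.0720) and Dll4 at 0.93 (adjusted p = 0.0763) were also short of the threshold. Hey1 and Heyl each differed by 0.59 with intervals that include 0. Notch1 at 0.04 (95% interval -0.39 to 0.47) and Notch2 at -0.09 (-0.47 to 0.29) showed no difference larger than those bounds.

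The calls against WT depended on which WT library was kept. Without WT replicate 1, the shallowest library and the highest WT library for 8 of the 10 genes, 7 genes were called higher, where 32.7% of all genes were called in either direction: Notch3, Notch4, Jag1, Jag2, Dll4, Hes1 and Hey1. These 7 and Heyl then did not overlap, where 28.1% of all genes were higher and 28.9% lower in that way. Without the library labelled WT replicate 3, which lacked Gulo reads, Notch4 alone was called (adjusted p = 0.0373, limma), where 18.1% of all genes were, and Notch3 (adjusted p = 0.0802) and Jag1 (adjusted p = 0.0592) were not. Notch3 also lost its call without WT replicate 2 (adjusted p = 0.0551) or VitC+/- replicate 1 (adjusted p = 0.0652), and Jag1 without VitC+/- replicate 3 (adjusted p = 0.0509).

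Endothelial and mural markers moved in the same direction in this comparison. The endothelial sum was 141 to 250 in WT and 288 to 323 in VitC+/-, with 9 of 16 markers called higher, and the mural sum over 12 markers was 44.1 to 162 and 100 to 228, with 3 of the 11 tested called higher. Blood cell markers were called lower in 8 of 12 cases, from a sum of 22016 to 30593 in WT to 3467 to 10776 in VitC+/-. Osteoclast markers were called higher in 8 of 10 cases, with sums of 810 to 899 and 2958 to 6531. Adipocyte markers were called higher in 5 of 7 cases, with a median log2 fold change of 2.69 and sums of 109 to 193 and 322 to 2503, the highest in VitC+/- replicate 2, and 4 of the 8 were listed at 0 in at least 1 WT library. Osteoblast and osteocyte markers summed to 1071 to 4038 in WT and 717 to 4515 in VitC+/-, with 3 of 15 called lower and 1 higher. All 8 muscle markers had lower values in VitC+/-, with a median log2 fold change of -1.46 and 0 called. Their sums in replicates 1 to 3 were 282, 8.11 and 718 in WT and 463, 17.5 and 8.35 in VitC+/-. The part of cell type in the differences of Notch3, Notch4 and Jag1 was not tested.

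Of the other pathway genes, 6 of 39 were called higher and 4 lower. Numbl, a relative of the Notch inhibitor Numb, was higher by a log2 fold change of 1.65 (adjusted p = 0.010, limma), Furin by 1.20 (adjusted p = 0.000758) and the ligand Dll1 by 1.15 (adjusted p = 0.00535). Neurl3, a member of the Neuralized family, was lower, with a log2 fold change of -0.97 (adjusted p = 0.0273). Rbpj differed by 0.09 (adjusted p = 0.721).

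WT and VitC+ mice both had vitamin C, from their own synthesis or from the water. No gene in the table was called between them by limma, so the share of all genes called was 0 in both directions, although 2769 had an unadjusted p under 0.05. Among the 10 genes 0 were called and 7 had an unadjusted p under 0.05, all with lower values in WT. The median log2 fold change was -0.88 over the 10 genes and 0.04 over all genes.

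Hes1 gave 6.15, 1.94 and 4.70 scaled RPKM in the libraries labelled WT and 11.1, 7.19 and 10.6 in VitC+. Every library labelled WT was below every VitC+ library, and the log2 fold change was -1.18 (SE 0.33, 95% interval -1.93 to -0.44, adjusted p = 0.113, limma). Heyl gave 2.09, 1.21 and 1.42 against 6.06, 2.6 and 4.53, again without overlap, a log2 fold change of -1.20 (95% interval -2.08 to -0.32, adjusted p = 0.137). Notch4 and Jag2 were the other genes whose WT values all lay lower, making 4 of 10 where 14.5% of all genes showed this, and Notch1 was the 1 gene whose WT values all lay higher, where 14.2% did. Hey1 at -1.0, Jag2 at -0.90, Notch3 and Jag1 each at -0.88, Notch4 at -0.85 and Dll4 at -0.70 completed the genes with lower values.

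This comparison also turned on WT replicate 1. Without it limma called 604 genes, 4.80% of all, and 4 of the 10: Notch3 (log2 fold change -1.20), Notch4 (-1.15), Hes1 (-1.47) and Hey1 (-1.54). All 10 then did not overlap, 8 lower in WT where 24.0% of all genes were, and Notch1 and Notch2 higher where 29.8% were. Without the library labelled WT replicate 3, 0 of the 10 were called. All 16 endothelial markers, all 11 mural markers and all 15 osteoblast markers tested had lower values in WT than in VitC+, with 0 called. So had all 10 osteoclast markers, 9 of them without overlap and with a median log2 fold change of -1.31, and 6 of 7 adipocyte markers, again with 0 called. Of 8 muscle markers 2 had lower and 6 higher values in WT, also with 0 called. The part of these shifts in the Notch values was not tested. The comparisons with WT share their WT libraries, so a low value in WT enters both.

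**Figure D2:**
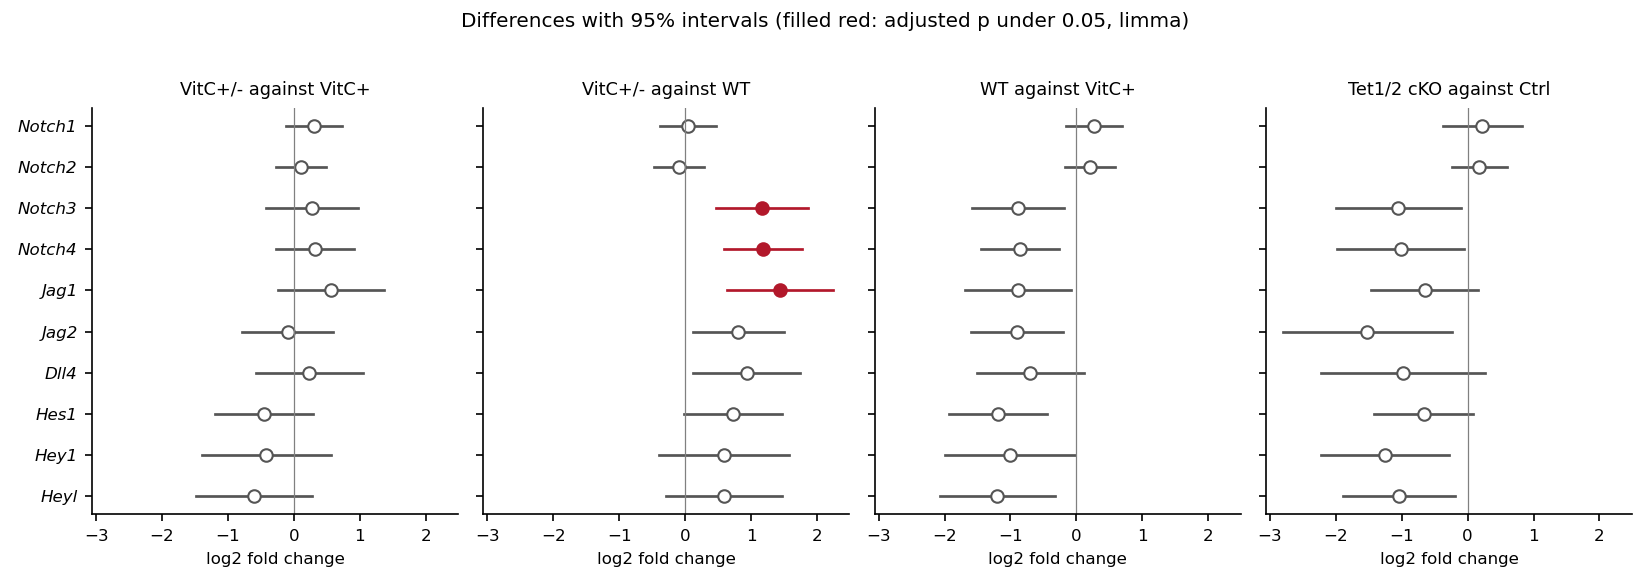
Log2 fold changes (points) with 95% intervals (lines) of the 10 genes in 4 comparisons, with filled red points where the adjusted p of limma was under 0.05. Only Notch3, Notch4 and Jag1 in VitC+/- against WT are filled, and 8 of the 10 genes have values below 0 in Tet1/2 cKO against Ctrl.

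The Tet femurs addressed whether loss of the enzymes from limb mesenchyme alters bone. Values are read counts divided by library size factors and are not per length, so they are compared between groups only. The counts of Tet1 and Tet2 do not check the deletion, since 1 exon of each gene was removed. Tet2 ranged from 2236 to 2512 in Ctrl and from 1851 to 2970 in Tet1/2 cKO, and Tet1 from 374 to 435 and from 415 to 485.

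In Tet1/2 cKO the values of 8 of the 10 genes were lower than in Ctrl, but no gene in the table passed the threshold. limma called 0 genes, which is 0% of the 16780 tested, with 847 at an unadjusted p under 0.05. edgeR called 0 and DESeq2 10 genes, none of them among the 10. Of the 10 genes, 5 had an unadjusted p under 0.05, all lower. The libraries of 7 of the 10 genes did not overlap between the groups, all lower in Tet1/2 cKO, where 10.0% of all genes showed this and 7.37% were higher in that way. The median log2 fold change was -1.0 over the 10 genes and -0.01 over all genes.

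Notch3 had normalized counts of 1876, 1675 and 2090 in Ctrl and 701, 787 and 1333 in Tet1/2 cKO. The third knockout library came nearest to the controls but stayed below all of them, and the log2 fold change was -1.05 (SE 0.43, 95% interval -2.0 to -0.10, adjusted p = 0.723, limma). Notch4 had 574, 748 and 723 in Ctrl and 211, 375 and 470 in Tet1/2 cKO, a log2 fold change of -1.02 (-1.99 to -0.05, same adjusted p). The remaining receptors had small positive values, 0.23 for Notch1 and 0.18 for Notch2, and their groups overlapped.

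All 3 ligands were lower in each Tet1/2 cKO library than in each Ctrl library. Jag2 had 225, 234 and 391 normalized counts in Ctrl and 68.7, 65.4 and 190 in Tet1/2 cKO. The third knockout library again stood nearest to the controls, and the log2 fold change of -1.52 (SE 0.59, 95% interval -2.81 to -0.23, adjusted p = 0.723, limma) was the largest of the 10. Jag1 had 934, 1190 and 1140 in Ctrl and 699, 609 and 770 in Tet1/2 cKO, a log2 fold change of -0.65 (-1.46 to 0.16). Dll4 had 251, 352 and 498 against 205, 181 and 153, a log2 fold change of -0.98 (-2.23 to 0.26).

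Of the targets, Hey1 had 476, 508 and 1026 normalized counts in Ctrl and 216, 383 and 218 in Tet1/2 cKO. Heyl had 679, 1001 and 838 against 290, 406 and 558, and Hes1 had 207, 394 and 396 against 259, 180 and 173. Hey1 and Heyl did not overlap between the groups, while 1 knockout library of Hes1 exceeded the lowest control. The log2 fold changes were -1.26 (95% interval -2.23 to -0.29) for Hey1, -1.04 (-1.89 to -0.18) for Heyl and -0.67 (-1.42 to 0.09) for Hes1, each with an adjusted p of 0.723 (limma).

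**Figure D3:**
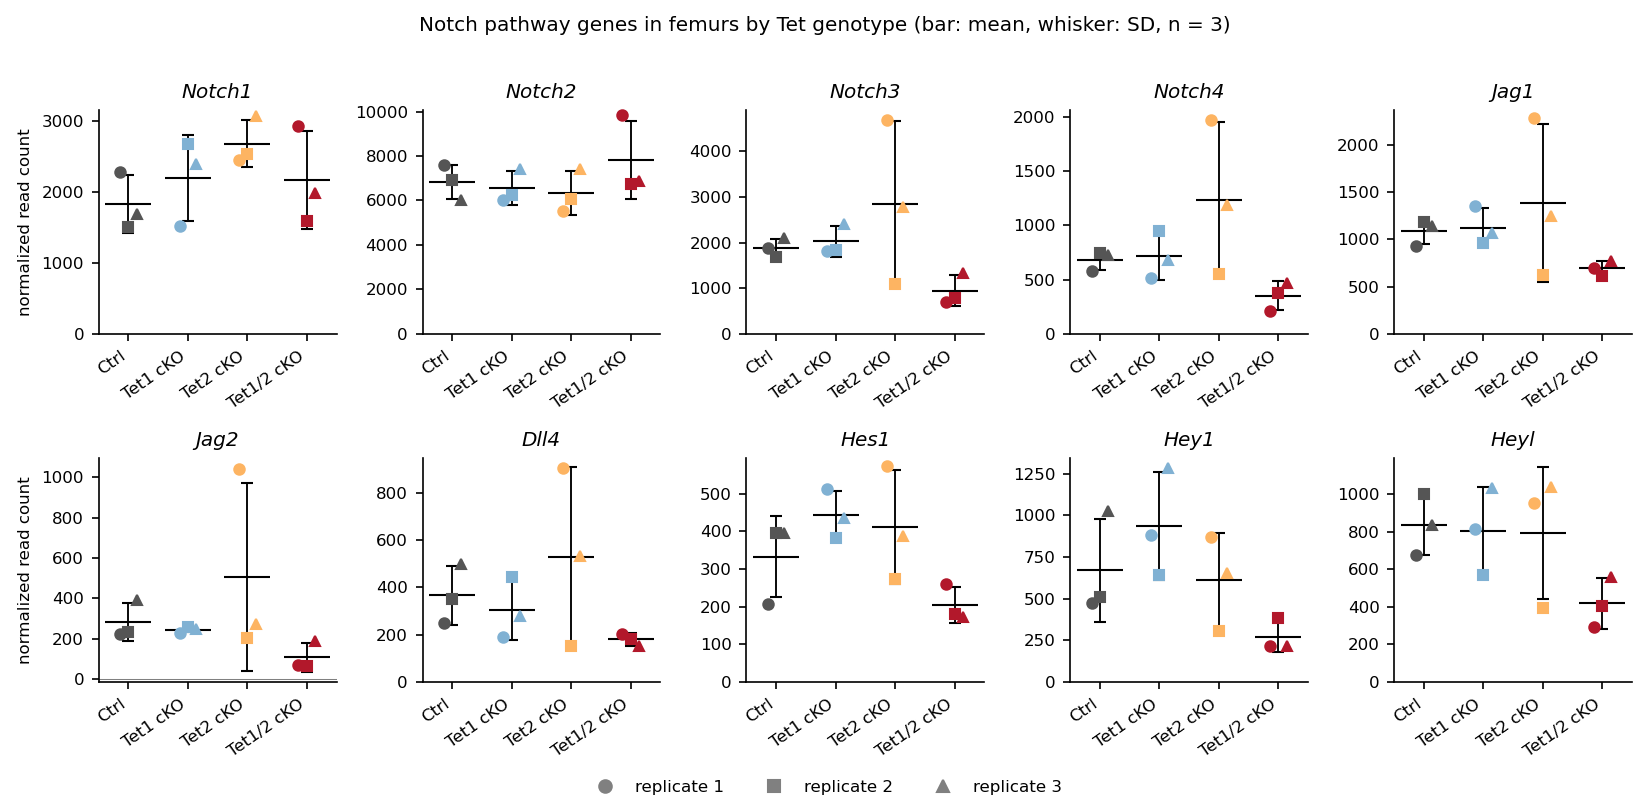
Normalized read counts (vertical axis) of the 10 genes in the 3 femur libraries of each Tet genotype, with 1 symbol per replicate number, a bar at the mean and a whisker of 1 SD. For 7 genes all 3 Tet1/2 cKO libraries lie below every Ctrl library, and Tet2 cKO replicate 1 stands far above the other Tet2 cKO libraries for Notch3, Notch4, Jag1 and Jag2.

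Vessel, bone and fat markers had lower sums in the same libraries, with 0 called. The summed normalized count of 16 endothelial markers was 24563 to 30680 in Ctrl and 12960 to 21058 in Tet1/2 cKO, with 9 of 16 lower without overlap. The mural sum was 13933 to 16969 and 7202 to 13690, with 5 of 12 lower without overlap, and the osteoblast and osteocyte sum was 1015090 to 1311270 and 318783 to 703608, with 10 of 15. The adipocyte sum was 14839 to 17194 and 6122 to 13054, with 4 of 8 lower without overlap. Of 10 osteoclast markers 9 had lower values and 4 did so without overlap, while their sums overlapped, at 96767 to 212482 and 85533 to 100515. Blood cell markers summed to 439179 to 704895 in Ctrl and 654385 to 1291120 in Tet1/2 cKO. Muscle markers summed to 105710 to 458531 in Ctrl and to 5057, 3048 and 387024 in replicates 1 to 3 of Tet1/2 cKO. All 8 had lower values, with a median log2 fold change of -3.82 and 0 without overlap. Over the 12 libraries the muscle sum ranged from 2948 to 1348720. None of the endothelial, mural, osteoblast, blood cell or muscle markers was at 0, and the part of cell type in the Notch values was not tested. Of the other pathway genes 0 of 43 were called, 7 were lower and 2 higher without overlap, and Rbpj differed by 0.11.

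In the single knockouts none of the 10 genes passed the test. limma called 0 of the 10 in Tet1 cKO and 0 in Tet2 cKO, with 0 at an unadjusted p under 0.05 in either, and 0.00596% of all genes were called in each direction in each comparison. Both comparisons and the Tet1/2 cKO comparison share the Ctrl libraries. In Tet1 cKO, Hey1 had 880, 641 and 1285 normalized counts and Hes1 had 512, 382 and 434, and their log2 fold changes of 0.51 (95% interval -0.46 to 1.49) and 0.46 (-0.29 to 1.21) were the largest of the 10. No gene of the 10 was without overlap there, where 3.54% of all genes were lower and 4.28% higher in that way.

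In Tet2 cKO, Notch1 had 2444, 2528 and 3065 normalized counts, above the 2281, 1502 and 1684 of Ctrl, a log2 fold change of 0.57 (95% interval -0.03 to 1.17, adjusted p = 0.9998, limma). It was the 1 gene of the 10 whose groups did not overlap, in the higher direction that 2.54% of all genes showed, while 3.43% were lower in that way. Tet2 cKO replicate 1 stood apart for most of the others. Notch3 had 4696, 1095 and 2772 in Tet2 cKO and Jag2 had 1042, 202 and 273, so that the first library was the highest and the second the lowest in both. That first library also had the highest endothelial sum, 59756, and the highest mural sum, 43500, of all Tet femur libraries. Its adipocyte sum of 38984.5 and muscle sum of 1348720 were the highest too, and its blood cell sum of 225402 was the lowest. Without it the log2 fold change of Notch3 moved from 0.37 to -0.10, that of Jag1 from 0.16 to -0.30, that of Jag2 from 0.49 to -0.22 and that of Dll4 from 0.25 to -0.31.

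The peak lists describe chromatin around the genes. Each group has 1 list. Samples were pooled before peak calling for 5hmC, and for the histone marks pooling is not stated, so there is no replicate error and no test was made. The measure is the length covered by peaks in the gene body and 30 kb on either side, as a log2 ratio after adding 1000 bp to both lengths, and it moves with how much of the genome a list covers. A ratio of at least 2-fold is called past 2-fold.

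In femurs, the 5hmC peak length around the genes was compared with and without vitamin C in the last 5 weeks. The lists covered 175 Mb each in VitC+ and VitC+/-, and 0 of the 10 genes passed 2-fold, where 0.431% of 19934 genes did so lower and 3.42% higher. All 10 ratios were below 0, between -0.04 at Heyl and -0.58 at Jag2, with a median of -0.17 against -0.11 over all genes. Most genes were below 0 as well, since Heyl, the member nearest to 0, stood at percentile 56.9 of all genes. Notch2 had by far the longest coverage, 42275 bp in VitC+ and 32196 bp in VitC+/-, a log2 ratio of -0.38. Jag2 had 1526 bp and 691 bp, and Dll4 1726 bp and 965 bp. At Hes1, which had 5553 bp and 4632 bp, the peak at the printed upstream stretch had a fold enrichment, as the peak caller gave it, of 13.6 in VitC+ and 7.79 in VitC+/-. Over the whole Hes1 window the mean fold was 5.46 and 5.50, and a peak past the 3′ end went the other way, with 7.93 and 10.1. At the printed Notch3 intron the folds were 4.70 and 3.09, at Notch2 6.85 and 5.15, and at Jag1 the order was the other way, 4.41 and 6.99.

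Between Tet1/2 cKO and Ctrl femurs the whole list differed, with 123 Mb in Tet1/2 cKO and 273 Mb in Ctrl, and all 10 genes had a shorter covered length in Tet1/2 cKO. Hey1 had 2333 bp in Tet1/2 cKO and 9213 bp in Ctrl, Jag1 11698 and 31306 bp, Notch3 7407 and 18320 bp and Notch4 8168 and 18789 bp. These 4 genes were past 2-fold lower, with log2 ratios of -1.62, -1.35, -1.20 and -1.11, where 53.4% of all genes were. The median was -0.95 over the 10 genes and -1.04 over all genes. Jag2 had a ratio of -0.58 and Notch2 of -0.64, the ratios nearest to 0. Hes1 had 13377 and 23361 bp, and at its printed upstream stretch the fold was 12 in Ctrl and 10.2 in Tet1/2 cKO. Its peak over the 3′ end went the other way, with 7.85 in Ctrl and 11.4 in Tet1/2 cKO. The mean fold over the whole Hes1 window was 6.37 in Ctrl and 8.46 in Tet1/2 cKO. At the printed Notch3 intron the folds were 6.6 and 4.87 and at Notch2 13.0 and 11.5, while at Jag1 the order was the other way, 10.0 and 11.4.

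**Figure D4:**
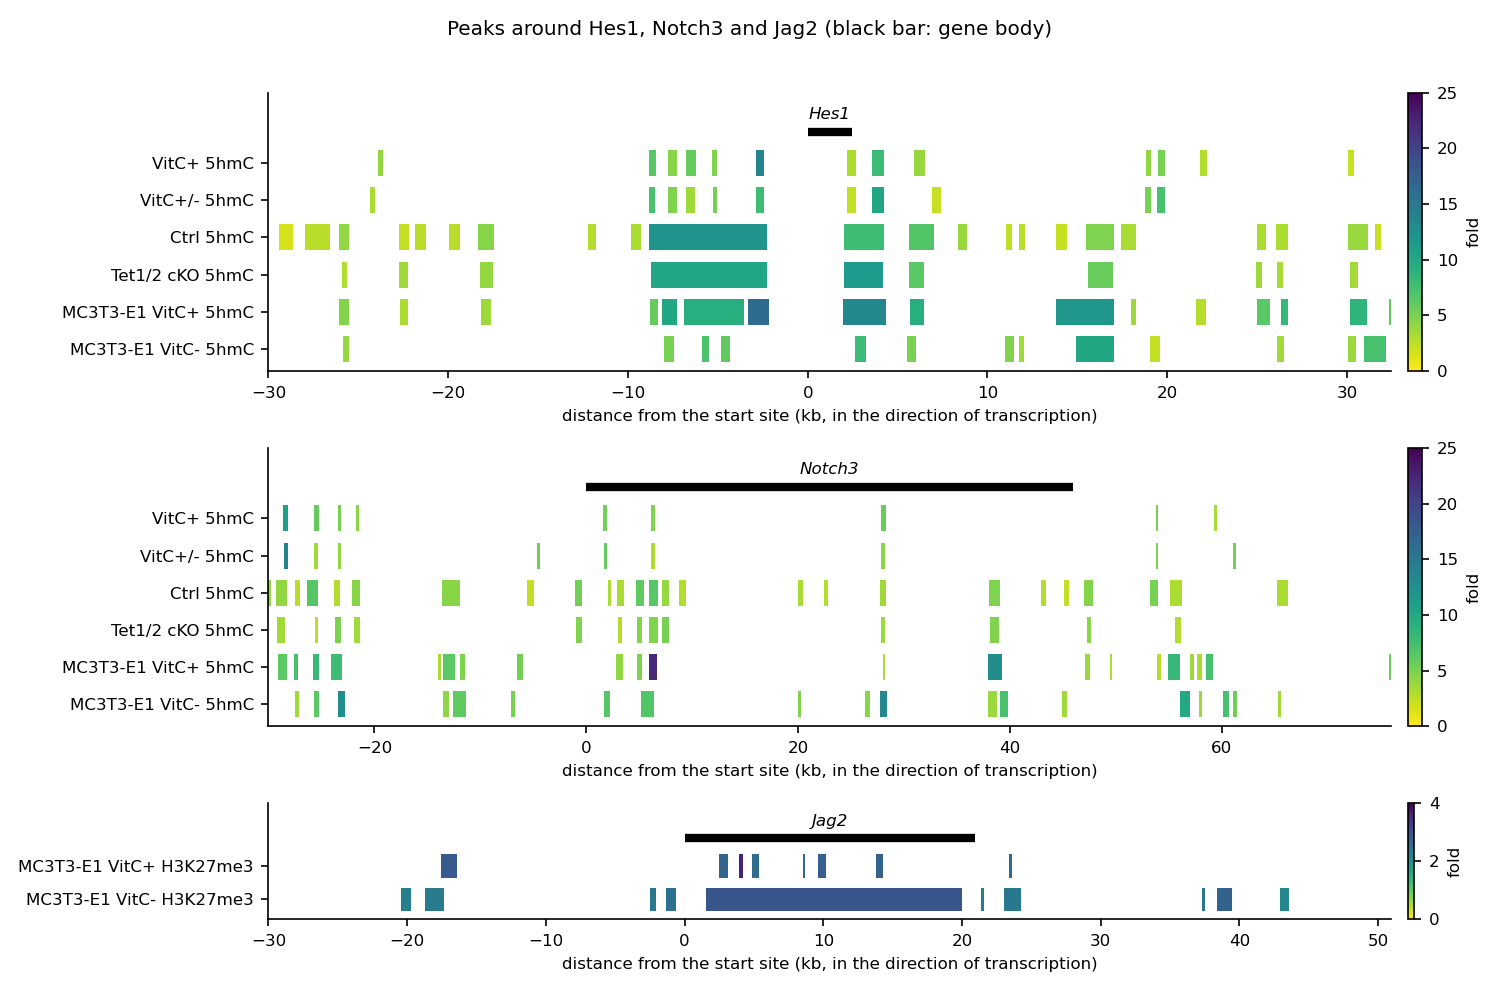
Peaks around Hes1 and Notch3 in the 6 lists of 5hmC and around Jag2 in the 2 lists of H3K27me3, against the distance from the start site in kb, with the gene body as a black bar and the fold enrichment as colour. Around Hes1 the MC3T3-E1 lists each hold peaks that the other lacks, in VitC+ the printed upstream peak with a fold of 16.3 and in VitC- downstream peaks with folds of 4.70 and 3.53, and Jag2 has a peak of 18475 bp in VitC- where VitC+ has 6 short ones.

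In MC3T3-E1 cells the covered 5hmC length was compared with and without vitamin C, in lists of 197 Mb with it and 149 Mb without, and the 10 genes stood near the background. Notch1 had 21733 bp covered in VitC+ and 5163 bp in VitC-, Jag1 26830 and 7681 bp, Notch2 83252 and 26404 bp, and Jag2 6942 and 2900 bp. These 4 of 10 were past 2-fold higher, with log2 ratios of 1.88, 1.68, 1.62 and 1.03, where 34.4% of all genes were. Heyl, with 0 and 2809 bp, was past 2-fold lower, where 23.5% were, and its ratio depends on the 1000 bp added. The median was 0.62 over the 10 genes and 0.54 over all genes.

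The printed peaks have the highest fold of the VitC+ list at their genes, so a higher fold there than in VitC- is largely set by that choice, and the same pick from the VitC- list is given beside it. At Notch3 the printed peak had a fold of 22.3 in VitC+ and 6.82 in VitC-, and the highest VitC- peak, another intron peak 28099 bp from the start site, had 13.5 in VitC- and 3.24 in VitC+. At Notch2 the pick from VitC+ had 22.5 and 5.88, and the pick from VitC- had 21.9 in VitC- and 5.28 in VitC+. Either pick thus gave the higher fold to the list it came from in these 2 receptors. At Notch1 both picks gave it to VitC+. There the pick from VitC+ had 19.3 with none overlapping in VitC-, and the pick from VitC- had 9.41 and overlapped a VitC+ peak of 17.0. At Jag1 the printed peak had 24.6 in VitC+ and 3.29 in VitC-. The highest VitC- peak lay past the 3′ end of Jag1 and had 12.1, with none overlapping in VitC+. At Hes1 the printed peak had 16.3 with none overlapping in VitC-. The highest VitC- peak lay past the 3′ end of Hes1, had 10.1 and overlapped a VitC+ peak of 11.7. At Jag2 both picks met at 1 place past the 3′ end of the gene, with 8.96 in VitC+ and 13.9 in VitC-. The highest peaks in the Notch4 window were 14.9 in VitC+ and 16.2 in VitC-. Both lay past the 3′ end of Notch4, and the middle of the VitC+ peak lies in another gene, Agpat1.

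Over their whole windows, Hes1 had 16687 bp covered in VitC+ and 8347 bp in VitC-, a log2 ratio of 0.92, and Notch3 had 12686 and 10978 bp. Notch4 at 0.31, Dll4 at -0.10 and Hey1 at -0.44 had log2 ratios within 2-fold.

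H3K27me3, the mark of Polycomb repression, covered less length at Jag2 and Hey1 in the list with vitamin C, in lists that covered 145 Mb in VitC+ and 233 Mb in VitC-. The study's methods and peak names give 7 days for these cultures and the labels 28. Jag2 had 4246 bp covered in VitC+ and 25345 bp in VitC-, a log2 ratio of -2.33. In VitC- a single peak of 18475 bp spanned most of its gene body, 88.4% of which was covered, against 13.3% in VitC+. Hey1 had 12100 and 28632 bp, a log2 ratio of -1.18. These 2 of 10 were past 2-fold lower, where 21.3% of all genes were, and 0 were higher, where 0.366% were. Both ratios rest on peaks of low significance. With only peaks of a -log10 q of at least 5, Jag2 and Hey1 had no peak in either list, and the 1 gene past 2-fold was Dll4, with 0 bp in VitC+ and 28109 bp in VitC-. By the number of peaks the log2 ratio was -0.29 for Jag2 and -0.42 for Hey1. In the gene body alone the log2 ratio of Hey1 was -0.07, so its gap lay outside the gene. Notch3 at -1.21 and Heyl at -1.79 were past 2-fold lower in the gene body, a window without a share over all genes. The median was -0.39 over the 10 genes and -0.33 over all genes.

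By share of the gene body, Dll4 and Notch4 were the most fully covered of the 10 in VitC+. Dll4 had 100% of its gene body under H3K27me3 with and without vitamin C, and Notch4 had 71.8% in VitC+ and 90.1% in VitC-. Notch3 had 21.3% and 52.1% and Heyl 7.18% and 39.9%, with log2 ratios over the whole window of -0.93 and -0.78. Within 30 kb of the start site the log2 ratio of Notch3 was -1.13, past 2-fold, in a window without a share over all genes. By the number of peaks Notch3 went the other way, with 12 in VitC+ and 6 in VitC- over the whole window. None of the Notch3 peaks reached a -log10 q of 5 in either list. The study names Notch3 in a subset of bone genes whose expression it ties to vitamin C and H3K27me3 in MC3T3-E1 cells. RNA of these cells was not compared here. Notch1 and Jag1 had no H3K27me3 peak in either list, Notch2 had 606 and 327 bp, and Hes1 had none in its gene body. Peaks in these histone lists start at low significance, and only 0.454% of the VitC+ and 0.804% of the VitC- H3K27me3 peaks reached a -log10 q of 5.

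H3K9me3, a mark of heterochromatin, was sparse at the genes, in lists of 44.0 Mb in VitC+ and 66.8 Mb in VitC-. Notch3 had 5128 bp covered in VitC+ and 11957 bp in VitC-, a log2 ratio of -1.08, and Notch2 had 0 and 2018 bp, a log2 ratio of -1.59 that depends on the length added. These 2 were past 2-fold lower, where 17.0% of all genes were, and 0 were higher, where 1.58% were. In the Notch3 gene body 0 bp were covered in VitC+ and 1689 bp in VitC-, and the widest peak of each list lay past its 3′ end. Notch1, Hes1 and Heyl had no H3K9me3 peak in either list. At none of the 10 genes did an H3K9me3 peak reach a -log10 q of 5. The median was -0.60 over the 10 genes and -0.04 over all genes.

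**Figure D5:**
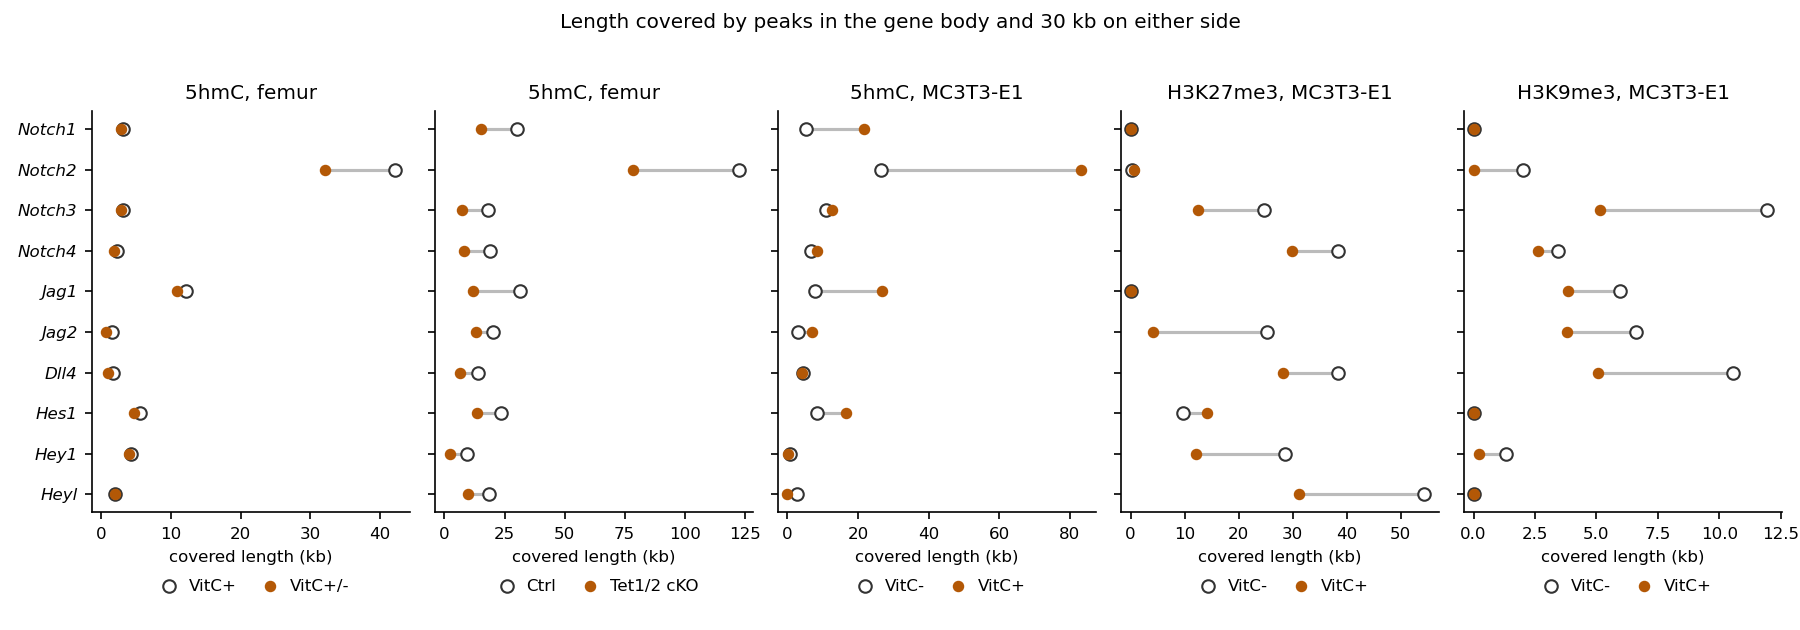
Length covered by peaks (horizontal axis, kb) in the gene body and 30 kb on either side of the 10 genes, in the 5 pairs of peak lists, with filled and open circles for the groups named under each panel. In Tet1/2 cKO against Ctrl all 10 genes lie lower, and in MC3T3-E1 cells the H3K27me3 gap at Jag2 is 4246 against 25345 bp.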

How the data were processed

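RNA was compared in 9 vitamin C and 12 Tet femur libraries, grouped by the labels. Reads had been aligned by the authors (STAR 2.6.0b-1, mm10) and counted with featureCounts 1.6.3. The deposited vitamin C files hold RPKM per library, and the methods name cufflinks for FPKM without saying whether it made them. The deposited Tet table holds counts divided by size factors of DESeq2 2.11.40.2, a normalized signal and not raw counts. The peak lists were made by the authors with BWA 0.7.15.1 and MACS2 2.1.1.20160309.6, and the deposited columns are fold enrichment (a ratio) and −log10 of the q value. hMeDIP peaks were called on pooled samples, and pooling of the histone samples is not stated.

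From these files, RPKM was divided by median-of-ratios factors (0.757 to 1.10), and log2(RPKM + 0.5) was fitted with limma 3.58.1 with trend in R 4.3.3 over all 9 libraries and those 12586 genes that reached an RPKM of 1 in 3 or more libraries. Tet values were fitted as log2(value + 1) over all 12 libraries and the 16780 genes with at least 10 in 3 libraries. Fold changes are on these scales and understate those of low genes. P-values were adjusted by Benjamini-Hochberg over all genes of each of 6 comparisons, with a threshold of 0.05. Whole reads recovered from the Tet values were tested with edgeR 4.0.16 and DESeq2 1.42.0 as alternatives. RPKM values gave whole reads within 0.05 for 79.4% to 85.2% of low values, which served only to estimate depth. The scripts were tested on simulated data. The vitamin C femur 5hmC lists hold 19 chromosomes, so the background of 19934 genes is autosomal.

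The text names the 10 genes throughout, up to 4 other pathway genes past the threshold with the largest fold change per comparison, Rbpj, and Gulo, Tet1 and Tet2 as checks of the labels. The members and lists were chosen with earlier results of these data known. The values of 1 pathway gene, which is counted in its list, are not reported here.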

Additional observations from a re-analysis of the deposited data

How the results depend on the processing

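There is 1 peak list a group, which allows no test, and 3 libraries a group leave wide intervals. Of the single-gene RNA differences under alternatives that kept all libraries, 446 kept their direction and side of the threshold, 3 passed it and 1 turned: Jag2 in VitC+/- against VitC+ was 0.0094 with RPKM as deposited. Genes called between VitC+/- and VitC+ ranged from 487 to 2296 when 1 library was left out. Same-numbered libraries were mixed, with r from -0.19 to 0.46 in the vitamin C femurs (above 0 in 6 of 9 pairs) and -0.57 to 0.53 in the Tet femurs, and the labels name no shared litter, batch or day, so a pairing was not established. A replicate block called 5 of the 10 genes and 4465 of all 12586 genes in VitC+/- against WT (adding Jag2 and Dll4, adjusted p = 0.0434 and 0.0230, limma) and 1 in WT against VitC+ (Hes1, adjusted p = 0.0408), and it called 774 genes in the latter. Leaving out 1 library gave 1 to 7 and 0 to 4 of the 10 genes in these comparisons. Without WT replicate 1, an alternative chosen after seeing the data, 8 of the 10 did not overlap in VitC+/- against WT and 10 in WT against VitC+.

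Leaving out 1 library turned the sign of several uncalled log2 fold changes. In VitC+/- against VitC+ the ranges were -0.0040 to 0.48 for Dll4 and -0.26 to 0.23 for Jag2, and against WT they were -0.15 to 0.16 for Notch1 and -0.21 to 0.033 for Notch2. In Tet1 cKO they were -0.15 to 0.021 for Notch2, -0.032 to 0.18 for Notch3, -0.19 to 0.25 for Notch4, -0.10 to 0.15 for Jag1, -0.30 to 0.093 for Jag2 and -0.28 to 0.14 for Heyl. In Tet2 cKO they were -0.10 to 0.95 for Notch3, -0.30 to 0.64 for Jag1, -0.22 to 0.96 for Jag2, -0.31 to 0.98 for Dll4, -0.0067 to 0.56 for Hes1, -0.49 to 0.26 for Hey1 and -0.44 to 0.27 for Heyl. In Tet1/2 cKO they were -0.016 to 0.43 for Notch1 and -0.0027 to 0.27 for Notch2, and the lower values of the other 8 genes kept their sign.

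Of the peak ratios, 261 stayed on their side of 2-fold, 38 moved and 1 turned, Jag2 5hmC in MC3T3-E1 at -0.47 in the gene body alone. The number of genes past 2-fold became 1 for femur 5hmC in VitC+/- with 100 bp added, 2 in the gene body alone and 8 at a −log10 q of at least 5 for Tet1/2 cKO, and 1 at that q for H3K27me3 (Dll4 at -4.86, while Jag2 and Hey1 became 0). For H3K9me3 it became 1 in the gene body alone, 0 at that q and 4 with 100 bp added. The cause of these shifts was not tested, apart from the fewer peaks that the stricter q leaves.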

Other observations

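For the 3 genes that varied most over the vitamin C femurs, the genes with the nearest pattern over all 21 RNA libraries were sought among 11191 genes, by the root-mean-square difference of log2 values centred within each experiment. Nearest to Jag1 were S1pr1 at 0.196, Mcam at 0.209 and Ralgds at 0.234. S1pr1, a sphingosine-1-phosphate receptor, is known from endothelium, and Mcam, an adhesion molecule, from mural and endothelial cells. Nearest to Heyl were Rai14 at 0.217, Rhoc at 0.251 and Crtap at 0.258, of which Crtap is known for collagen prolyl 3-hydroxylation. Nearest to Hey1 were 2700081O15Rik at 0.304, Smad6 at 0.329 and Glis2 at 0.333, of which Smad6 is known as an inhibitor of BMP signalling. The libraries of each experiment are shared by all of these genes, so the distances are a description.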
